A study of Oryza sativa with 6 samples.

Results

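A set of 304 loci of the rice (Oryza sativa) genome, of 38042 in all, had reads in every root library of the cultivar Mulai and none in any root library of the cultivar IR29. They were chosen by their values: a scaled fragment count of at least 20 in each of the 3 Mulai libraries and of exactly 0 in each of the 3 IR29 libraries. The scaled count is the number of fragments assigned to a locus multiplied by 1 factor per library. The study measured messenger RNA by strand-specific sequencing in 3 root types of 2 cultivars, with 1 library per cultivar and root type and no replicate: L-type lateral roots, S-type lateral roots and nodal roots of Mulai, labelled salinity tolerant, and the same root types of IR29, labelled salinity sensitive. All plants grew at the same stated temperatures of day and night, no salt treatment, plant age or pooling of plants is named, and the Mulai and IR29 records are referred to separate earlier sets. A difference of cultivar therefore cannot be told apart from one of batch.

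Nodal roots emerge from the stem nodes and form the main axes of the adult rice root system. Lateral roots branch from them in 2 classes, the short, thin, unbranched S-type and the longer, branching L-type. Rice cultivars are known to differ in gene content and in sequence, so that a locus of the reference genome can be missing, divergent or silent in a cultivar. The reads were processed with the IRGSP-1.0 build, the reference of the japonica cultivar Nipponbare, while IR29 is an indica cultivar. How close Mulai or IR29 is to this reference was not tested. A read count alone does not separate a missing or divergent locus from a silent one, and in whole roots fewer cells of a type and less RNA per cell cannot be told apart either. None of the 38042 identifiers matched the available gene table, so the loci are given without gene names, roles, positions or sequences, and root type markers could not be checked.

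The Mulai libraries were deeper, with 5631504 (L-type), 6246649 (S-type) and 7904454 reads (nodal), against 3891153, 4083173 and 4253677 reads in the IR29 libraries of the same root types. A read was worth 0.855, 0.890 and 0.601 units in the Mulai libraries, and 1.17, 1.504 and 1.15 units in the IR29 libraries. Intervals of ratios and of shares of reads cover counting error only, since reads made by PCR without molecular identifiers are not independent molecules. Intervals of shares of loci treat loci as independent draws, which they are not, and do not cover the error of the reads.

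In Mulai 14465 loci had a value of at least 20 in every root type, and the 304 loci at 0 in IR29 were 2.10% of them. The step at 0 was abrupt. A single read over the 3 IR29 libraries was seen at 25 loci, 2 reads at 12 loci and 3 reads at 8 loci, and 33 loci had 4 to 10 reads. A total of 12776 loci had over 100 IR29 reads. Being at 0 in IR29 went across root types as well: 304 loci were at 0 in all 3 IR29 libraries, 39 in 2 of them and 75 in 1 of them. Of these 75, 36 were at 0 in the IR29 L-type library, 20 in the S-type and 19 in the nodal library.

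**Figure D1:**
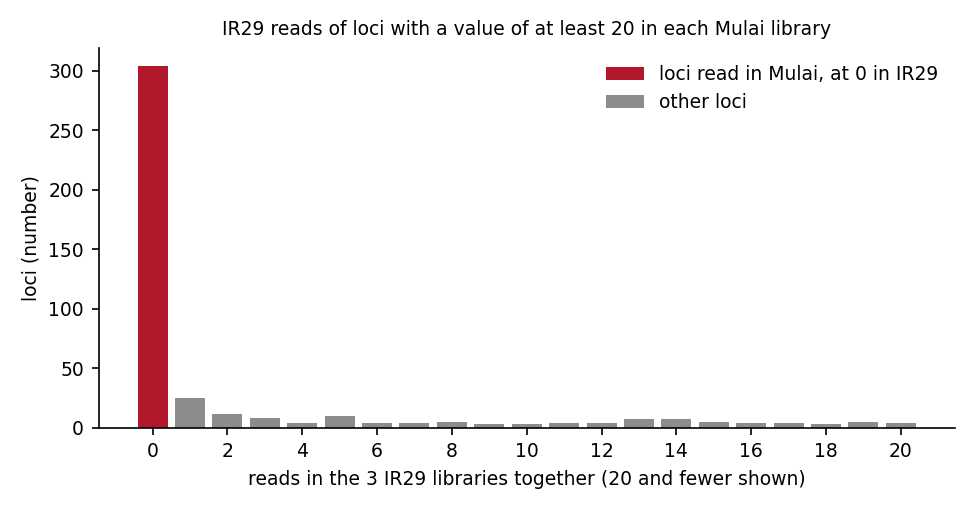
Number of loci (vertical axis) by the reads they had in the 3 IR29 libraries together (horizontal axis, 20 and fewer shown), among 14465 loci with a scaled count of at least 20 in each Mulai library. The bar at 0 holds the 304 loci described here, against 25 loci with 1 read and 12 with 2 reads.

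The depth of the libraries set what a count of 0 in IR29 could show. Had the loci stood in IR29 at their Mulai values, the 3 IR29 libraries together would have held between 56.4 and 8217 reads of each locus, with a median of 202 reads. They held 0. For the other 14161 loci read in Mulai, the IR29 reads were a median of 1.02 times the number given by the Mulai values. With 3 reads per IR29 library taken as the floor, the median locus was at least 22.0-fold higher in Mulai than in IR29 in L-type, at least 22.0-fold in S-type and at least 21.9-fold in nodal roots. The lowest of these bounds were 6.08 in L-type, 4.54 in S-type and 5.91 in nodal roots. A bound of at least 100-fold was reached by 18 loci in L-type, 21 in S-type and 16 in nodal roots. These bounds describe how the loci were chosen and are not a test.

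Just inside the lower limit in Mulai, 31 of the 304 loci had a lowest Mulai value between 20.4 and 24.9. Just outside it, 62 loci without an IR29 read had a lowest Mulai value between 15.1 and 19.8. The 25 loci with 1 IR29 read, just outside the other limit, had mean Mulai values of 26.5 to 716 with a median of 84.8, close to the median of 86.8 of the 304.

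As a set, the loci absent from IR29 were less abundant in Mulai than the other loci with at least 20 in each Mulai library. Their median scaled count was 77.4 in L-type, 99.2 in S-type and 75.7 in nodal roots, against 158, 167 and 150 for the other loci read in Mulai in the same order. Quartiles of the mean over the 3 Mulai libraries were 51.4 and 159, against 82.1 and 359 for the other loci. Their middle lay at the 61.0th percentile of all loci with any read in Mulai, and their range ran from the 40.4th to the 99.7th percentile. The fewest reads behind a value were 25 in L-type, 23 in S-type and 34 in nodal roots, and the medians were 90.5, 112 and 126 reads. These values are counts per locus that were not divided by transcript length, so an order of loci by value is not an order of transcript numbers.

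**Figure D2:**
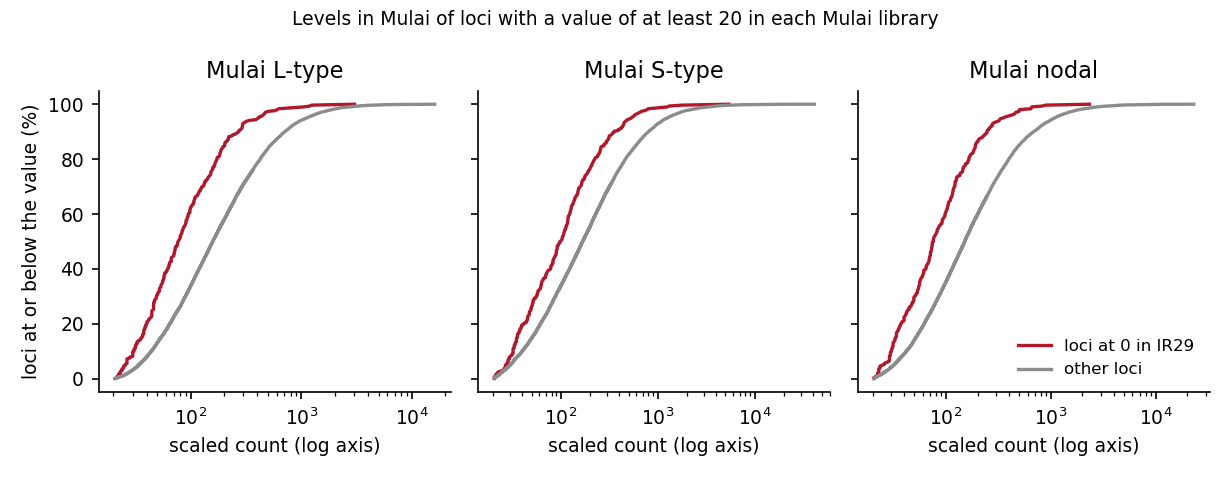
Share of loci (vertical axis, percent) at or below a scaled count (horizontal axis, log scale) in the L-type, S-type and nodal libraries of Mulai, for the 304 loci at 0 in IR29 and the 14161 other loci with at least 20 in each Mulai library. The curve of the 304 loci lies to the left in each panel, with medians of 77.4, 99.2 and 75.7.

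Summed, the 304 loci took 0.854% of the reads of the Mulai L-type library (exact 95% binomial interval 0.847 to 0.862), 0.975% of the S-type library (0.968 to 0.983) and 0.793% of the nodal library (0.787 to 0.799). The share was thus higher in S-type than in L-type and nodal roots by more than the counting error, with 1 library per root type and no replicate check. The 10 most abundant of the loci held 24.5% of these reads in L-type, 26.2% in S-type and 19.1% in nodal roots.

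The most abundant locus stood far above the rest. It had a scaled count of 3026 in L-type, 5431 in S-type and 2330 in nodal roots of Mulai, from 3539, 6103 and 3876 reads, and 0 reads in every IR29 library. It took 113th place among all loci in the L-type library, 55th in the S-type and 197th in the nodal library. Its S-type value was 2.33 times the nodal value (95% counting interval 2.24 to 2.43), and it was at least 1204-fold higher in Mulai than in IR29 S-type roots. The second locus had 1195, 1790 and 893 units in L-type, S-type and nodal roots, and the third 1245, 1307 and 829 units. These 3 loci all had their highest value in S-type and their lowest in nodal roots. For the third, S-type and L-type were within the counting error, with a ratio of 0.952 for L-type over S-type (0.885 to 1.02). The fifth locus had 626, 796 and 650 units, and its S-type value was 1.22 times the nodal value (1.12 to 1.34).

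The share of loci absent from IR29 was lower at higher levels in Mulai but did not reach 0. Among loci with a mean Mulai value of 20 to 50 it was 4.64% (73 of 1573), from 50 to 100 it was 3.04% (94 of 3097), and from 100 to 200 it was 2.18% (77 of 3528). It was 1.27% from 200 to 500 (49 of 3866), 0.522% from 500 to 1000 (8 of 1534) and 0.346% at 1000 and over (3 of 867; exact 95% binomial interval 0.0714 to 1.01).

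Within Mulai the loci leaned towards S-type lateral roots. S-type held the highest of the 3 values for 169 of the 304 loci (55.6%), nodal roots for 89 (29.3%) and L-type for 46 (15.1%). For the other 14161 loci these shares were 45.7%, 36.1% and 18.2%. The values of most loci lay close together: 181 (59.5%) differed by less than 2-fold between all root types, against 60.2% of the other loci, and 16 (5.26%) differed by 4-fold or more between a pair of root types, against 9.57%. With 1 library per root type, and no read in IR29 that could serve as a second one, none of these root type differences has a replicate check and none was tested.

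S-type over nodal roots had more loci past 2-fold, both directions together, than either contrast of L-type roots. This held for the other loci as well and is not particular to the 304. At least 2-fold higher in S-type than in nodal roots of Mulai were 77 of the 304 loci (25.3%, exact 95% binomial interval 20.5 to 30.6), against 18.7% of the other loci. At least 2-fold lower were 31 loci (10.2%, interval 7.03 to 14.2), against 15.5% of the other loci. The median log2 ratio was 0.27, against 0.11 for the other loci, and 63.5% of the 304 ratios were above 1, against 54.5%. L-type roots stood between S-type and nodal roots for 57 of the 77 loci that were higher in S-type (74.0%), against 86.7% of the other loci that were higher there, and for 23 of the 31 that were lower (74.2%), against 84.7%.

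**Figure D3:**
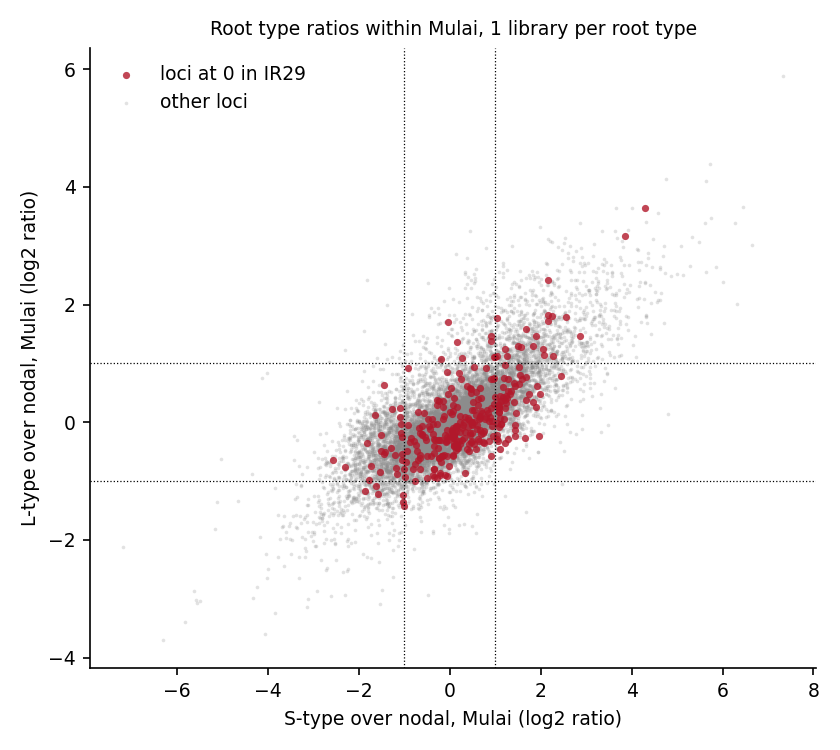
Log2 ratio of L-type over nodal roots (vertical axis) against log2 ratio of S-type over nodal roots (horizontal axis) within Mulai, 1 point per locus, with dotted lines at 2-fold, for the 304 loci at 0 in IR29 and the 14161 other loci with at least 20 in each Mulai library. To the right of the upper 2-fold line lie 77 of the 304 loci, and to the left of the lower one 31. Both axes share the nodal library.

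The 2 loci with the widest gain in S-type roots among the 137 with a mean Mulai value of at least 100 were high in L-type roots too. XLOC_036474 had 798 units in L-type, 1259 in S-type and 64.3 in nodal roots, from 933, 1415 and 107 reads. Both laterals were thus far above the nodal roots, with a ratio of 19.6 for S-type over nodal (95% counting interval 16.1 to 24.1) and of 12.4 for L-type over nodal (10.1 to 15.3). It was the fourth most abundant of the 304 loci. XLOC_037909 had 259, 419 and 28.9 units in L-type, S-type and nodal roots, and its S-type over nodal ratio was 14.5 (10.8 to 19.98). In all, 12 loci (3.95%) were at least 4-fold higher in S-type than in nodal roots, with mean values between 84.3 and 707, against 5.27% of the other loci.

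In the opposite direction, XLOC_001135 had 317 units in L-type, 83.7 in S-type and 496 in nodal roots, a ratio of 0.169 for S-type over nodal (95% counting interval 0.135 to 0.209). XLOC_036135 had 192, 69.4 and 246 units in the same order, a ratio of 0.282 (0.218 to 0.360). For both, the L-type value lay nearer to the nodal than to the S-type value. At least 4-fold lower in S-type than in nodal roots were 2 of the 304 loci (0.658%), against 3.1% of the other loci. They were XLOC_001135 and XLOC_037630, which had 80.4, 27.6 and 136 units in L-type, S-type and nodal roots and was added after its values were seen, since its mean was under 100.

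L-type roots were close to nodal roots. At least 2-fold higher in L-type than in nodal roots were 28 loci (9.21%), against 9.43% of the other loci, and at least 2-fold lower were 6 (1.97%), against 4.48%. The median log2 ratio was -0.06, against 0.00 for the other loci. Of the 77 loci at least 2-fold higher in S-type than in nodal roots, 21 also reached 2-fold in L-type over nodal roots (27.3%), against 39.4% of the 2647 other loci higher in S-type. Both contrasts share the nodal library.

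Against S-type roots, L-type roots were mostly lower. At least 2-fold higher in L-type than in S-type roots were 15 loci (4.93%), against 9.55% of the other loci, and at least 2-fold lower were 35 (11.5%), against 9.10%. The median log2 ratio was -0.36, against -0.09 for the other loci. Only 31.9% of the 304 ratios were above 1, against 44.6%. These 3 contrasts share libraries by pairs and are not independent of each other.

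The order of the root types differed from that of other loci mainly in the place of L-type. S-type was highest and L-type lowest for 81 of the 304 loci (26.6%), against 14.0% of the other loci. The order S-type, L-type, nodal from high to low was held by 88 loci (28.9%), against 31.7%. The order nodal, L-type, S-type was held by 51 (16.8%), against 26.5%. L-type lay between the other 2 root types for 139 loci (45.7%), against 58.2% of the other loci. No test of these differences was made. Across the 304 loci, the log2 values of L-type and S-type roots correlated at r = 0.85 and rho = 0.82, those of L-type and nodal roots at r = 0.84 and rho = 0.81, and those of S-type and nodal roots at r = 0.71 and rho = 0.67. The last was also the lowest among the other loci, at r = 0.73. These are correlations across loci of the same libraries, and loci are not independent replicates.

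The loci with the highest and lowest L-type value relative to the other root types are given next. Among the 137 loci with a mean Mulai value of at least 100, XLOC_036474 had the widest excess of L-type over the geometric mean of both other root types (log2 difference 1.49), although its S-type value was higher still. Next came XLOC_035625, with 220 units in L-type, 61.4 in S-type and 116 in nodal roots, and a ratio of 3.58 for L-type over S-type (95% counting interval 2.73 to 4.74) and 1.89 for L-type over nodal (1.57 to 2.30). Here L-type was the highest root type against both others. XLOC_037501 had 64.1, 147 and 117 units in L-type, S-type and nodal roots, and XLOC_035402 had 70.1, 208 and 96.2 units. In these 2 loci L-type was the lowest root type, with ratios of 0.437 (0.328 to 0.577) and 0.337 (0.259 to 0.435) over S-type.

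**Figure D4:**
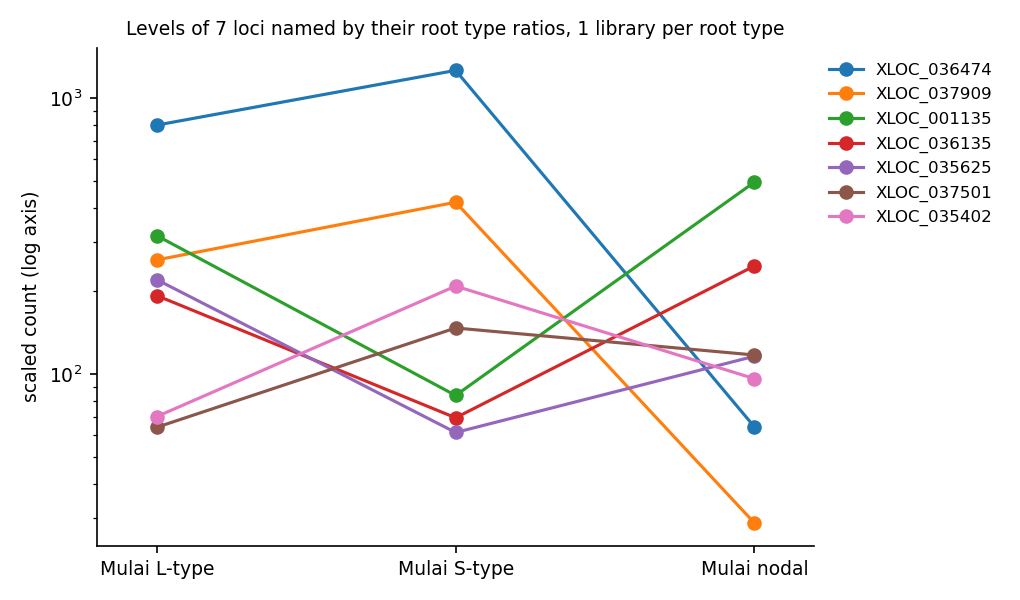
Scaled counts (vertical axis, log scale) of the 7 loci named by the ranks of their ratios in the L-type, S-type and nodal libraries of Mulai, 1 library per point, with lines joining the values of a locus. XLOC_036474 and XLOC_037909 are high in both laterals and low in nodal roots, and XLOC_001135 and XLOC_036135 are lowest in S-type roots. All 7 were at 0 in every IR29 library.

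The lean towards S-type roots was uneven across levels of abundance. S-type was the highest root type for 47.9% of the loci with mean values of 20 to 50, against 37.4% of other loci of that level, for 47.9% from 50 to 100, against 42.2%, for 62.3% from 100 to 200, against 48.4%, and for 63.3% from 200 to 500, against 48.4%. It was the highest root type for 87.5% of the 8 loci from 500 to 1000, against 48.9%, and for all 3 loci at 1000 and over, against 44.6%. The share at least 2-fold higher in S-type than in nodal roots was 9.59% (7 of 73 loci) from 20 to 50, against 135 of 1500 other loci, 27.7% (26 of 94) from 50 to 100, against 15.6%, 26.0% (20 of 77) from 100 to 200, against 18.3%, and 38.8% (19 of 49) from 200 to 500, against 19.9%. At the lowest level the 2-fold shares were thus close, and in the next 3 levels the share of the loci absent from IR29 was the higher one. The minimum of 20 in each library limits 2-fold ratios at the lowest level in both sets. At least 2-fold lower were 6.85% from 20 to 50, against 10.8%, and 17.0% from 50 to 100, against 18.5%. From 100 to 200 they were 6.49%, against 16.9%, and from 200 to 500 they were 10.2%, against 13.3%.

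The identifiers are numbered from 1 to 38042, and whether the numbers follow the genome is not given in the sources used here. By number, 30 of the 304 loci (9.87%) stood next to another of them, in 15 pairs. Among loci read in Mulai that had a number next to one of the 304, 14.9% (30 of 201) were themselves absent from IR29, against 1.36% (171 of 12573) beside the other loci. In 12 of the 15 pairs the mean values were within 2-fold of each other, while 7 pairs had their highest value in the same root type and 7 had S-type over nodal ratios on the same side of 1. These counts were not made for pairs of other loci, so no likeness of neighbours is read from them. Numbers beside the 304 loci were also more often without a read in any of the 6 libraries, 28.9% (176 of 608) against 19.1% (5401 of 28320) beside the other loci. Neighbouring loci that overlap could share reads, which was not tested.

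The identifier numbers were also cut into 10 equal blocks. The share of loci absent from IR29 was lowest in block 2, at 1.05% (17 of 1616 loci; exact 95% binomial interval 0.614 to 1.68), and highest in block 10, with the last numbers, at 4.56% (54 of 1185; 3.44 to 5.90). In blocks 8 and 9 it was 2.97% and 2.86%. Loci read in IR29 and at 0 in Mulai, found by the same rule with the cultivars exchanged, also had their highest share in block 10, at 2.60% (28 of 1078), with 19 of 1265 loci in block 8 and 13 of 1133 in block 9. The loci read in Mulai were also less abundant in block 10, with a median mean value of 137, against 180 in block 2. The part of abundance in this difference was not tested.

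**Figure D5:**
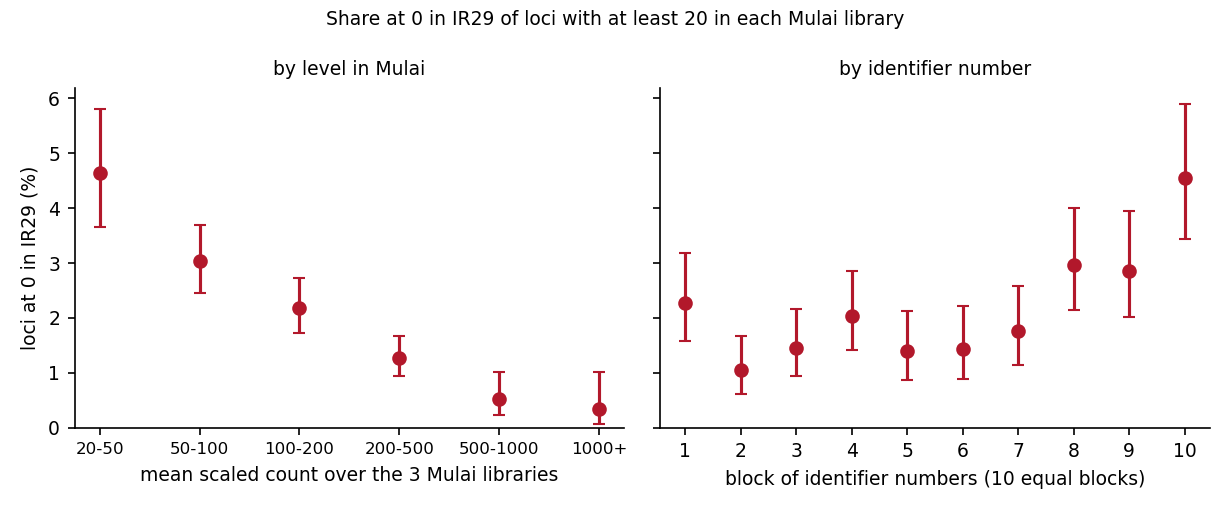
Share of loci at 0 in IR29 (vertical axis, percent) among loci with at least 20 in each Mulai library, by mean scaled count over the 3 Mulai libraries (left) and by block of identifier numbers (right). Points are shares and bars exact 95% binomial intervals: the share is 4.64% at means of 20 to 50 and 0.346% at 1000 and over, and 4.56% in block 10 of the numbers.

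With the cultivars exchanged, the same rule found 133 loci read in every IR29 library and at 0 in Mulai, 0.995% of the 13371 loci with at least 20 in each IR29 library, against 304 loci and 2.10% for Mulai. After thinning of all libraries to 3891153 reads the numbers were 309 for Mulai, 294 of them among the 304, and 143 for IR29. The levels were alike, with medians of the mean value of 86.8 for the 304 loci in Mulai and 88.9 for the 133 loci in IR29. The root type of the highest value was not: S-type led for 55.6% of the 304 loci, while L-type led for 60 of the 133 loci in IR29 (45.1%) and S-type for 48 (36.1%). Shares by highest root type were not computed for the other loci read in IR29. Within IR29, 32.3% of the 133 loci were at least 2-fold higher in L-type than in nodal roots, against 17.1% of the other loci. At least 2-fold lower were 9.77%, against 14.4%. The 2 sets rest on different libraries, and the difference between them was not tested.

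In a model fitted to all loci, which judges the cultivars over the 3 root types, 918 of 20316 loci were higher in Mulai than in IR29 (4.52%; limma, Benjamini-Hochberg adjusted p under 0.05). All 304 loci were among them, and since the same contrast chose them, nothing is read from this count. edgeR on the recovered reads called 297 of the 304, with 3.1% of all loci called higher in Mulai, and DESeq2 called all 304, with 5.96%. Separate plants are not stated for any library, and such p-values measure only the spread among the libraries, which may be technical.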

How the data were processed

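The submitters' processing notes name the IRGSP-1.0 build and the tools Cuffdiff 2.2.1, Cufflinks 2.2.1, TopHat2 2.0.11, Bowtie and Trimmomatic 0.32. Not given in the sources used here are their options, the annotation, and how strand and multiply aligned reads were treated. The authors deposited 1 table of 38042 loci whose values are a signal per locus, scaled fragment counts, per the file headers and the values. Whole reads were recovered, since 100% of the nonzero values in each library came out whole after division by 1 step (tolerance 0.1 of a read, largest gap 0.0753). The deposited variance columns were used only at values of 0. No identifier was found among the 39387 genes of the RefSeq table (assembly ASM3414082v1).

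The members, lists and comparisons were chosen with earlier results of these data known. Ratios within Mulai used the deposited values without a pseudocount, and 2-fold was the limit. Counting intervals of ratios are exact binomial at 95%. Loci named by identifier were those with a mean Mulai value of at least 100 and the 2 largest and 2 smallest ratios of S-type over nodal roots, and likewise of L-type over the geometric mean of both others. The most abundant loci are described by rank.

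Cultivars were compared with limma 3.58.1 (R 4.3.3) on log2(value + 1) of loci with at least 10 in at least 2 libraries, with root type as a covariate, a variance trend and a threshold of 0.05. The fit was tested on simulated data. Alternatives were edgeR 4.0.16 (quasi-likelihood, TMM) and DESeq2 1.42.0 on recovered reads, other scalings, pseudocounts, filters, limits of the rule, thinning, and leaving out each library. Replicates do not exist for a cultivar and root type.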

Additional observations from a re-analysis of the deposited data

Results flagged for a closer look

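A signal appeared in columns that the comparisons above did not use. Of the 304 loci, 42 (13.8%) had a deposited variance above 0 in an IR29 library in which their count was 0, and 37 of them in all 3 IR29 libraries. In single libraries they were 37 loci in L-type (12.2%), 40 in S-type (13.2%) and 41 in nodal roots (13.5%), against 29.2%, 29.0% and 31.4% of all loci at 0 in the same library. Against loci at 0 in the library that had a read in every Mulai library, the shares were 17.1%, 15.5% and 19.0%. The variances ran between 1 and 8.28 with a median of 2.99. The 42 loci had a median mean value in Mulai of 67.0, against 92.3 for the other loci absent from IR29. A variance above 0 also stood at 2428 of 9125 loci with a count of 0 in every library (26.6%). What such a variance stands for was not tested, since how multiply aligned reads were treated is not given.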

How the results depend on the processing

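With a minimum of 50 in place of 20 in Mulai the rule found 169 loci. Without one library at a time it found 314 to 350 loci, and the other 4 limits tried stayed within 1.5 times of 304. Leaving out a library, a lower minimum in Mulai or allowing IR29 reads can only add loci, so such counts could not fall below 304. For S-type over nodal roots, 77 loci higher and 31 lower at 2-fold became 116 and 54 at 1.5-fold, 12 and 2 at 4-fold, and 44 and 11 with the minimum of 50. For L-type over nodal roots, 28 higher and 6 lower became 53 and 38, 3 and 0, and 13 and 1 under the same settings, and the 6 lower became 10 when up to 3 IR29 reads were allowed. For L-type over S-type roots, 15 higher and 35 lower became 35 and 107, 1 and 1, and 6 and 20. Fewer or more loci past a stricter or looser fold, and fewer under a higher minimum, follow from how these settings are built. Apart from 4-fold for S-type over nodal roots, the shares of the other loci under these settings were not computed. Whether a lean particular to the 304 loci holds there is thus not read from these counts. TMM and median ratio scaling moved none of the 6 counts at 2-fold by more than 2 loci. The 4 loci named for S-type over nodal roots kept their direction. For Mulai over IR29 the 1500 loci called in both directions became 726 with a filter at 50. That filter tested 14707 loci and called all 214 of the loci absent from IR29 that it kept. When each library was left out, the loci called lay between 1046 and 1690. In these 6 fits the lone library of a root type is taken up by its own root type term. The cultivar contrast then rests only on the root types with both cultivars. All 304 loci stayed called in those 6 fits. With a minimum of 10 or 50 in Mulai, the loci next to another by number were 54 or 10 in place of 30. With a margin of 1.5 times over the next root type, 84 loci were highest in S-type, 23 in nodal and 9 in L-type roots. The shares of the other loci at this margin were not computed, so no lean particular to the 304 loci is read from these counts. The cultivars were paired by root type through the root type term, without which 1108 loci were called, all 304 among them. No paired analysis by replicate number was possible because the groups share fewer than 2 numbers. Depth limits the rule at its lower end, where a value of 20 stood for 23 to 34 reads in Mulai.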
